A study of Mus musculus with 2 samples.

Results

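The genes described here build and surround the photoreceptor outer segment: *Prph2*, *Rom1*, *Rp1*, *Rp1l1*, *Prom1*, *Cdhr1*, *Impg1*, *Impg2*, and *Reep6*. They were taken by symbol, and all 9 were found among the 32285 genes counted in each of 2 droplet-based scRNA-Seq libraries of mouse retina. One library came from WT retina and the other from retina with the ND6 mutation, P25L in the mtDNA-encoded ND6 subunit of complex I. Both were labelled male, C57BL/6J, aged 7 months, with no treatment named, and both retinas were digested with enzymes to single cells. The sources used here do not give the number of mice behind a library. There was 1 library per genotype, so the spread between animals is unknown, no test was made, and every 95% interval below covers counting error only. The 2 libraries shared 59 cell barcodes.

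The outer segment is a modified cilium packed with flat membrane discs that carry the light-sensing proteins. Discs form at its base, where evaginating membrane closes off at a rim, and the finished stack is held along a microtubule axoneme. *Prph2* and *Rom1* encode related tetraspanins that form the disc rim. *Prom1* (a pentaspan membrane protein) and *Cdhr1* (a photoreceptor cadherin) act where new discs form. *Rp1* and *Rp1l1* encode doublecortin-family proteins of the axoneme. *Impg1* and *Impg2* encode proteoglycans of the interphotoreceptor matrix, the material around the outer segments. *Reep6* encodes a protein of the endoplasmic reticulum that is needed for protein and vesicle traffic in rods.

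By GENCODE vM21 on GRCm38 (mm10), *Prph2* (ENSMUSG00000023978) spans chr17:46910459-46924933 on the plus strand and *Rom1* (ENSMUSG00000071648) spans chr19:8927391-8929356 on the minus strand. *Rp1* (ENSMUSG00000025900) spans chr1:3999557-4409241 on the minus strand and *Rp1l1* (ENSMUSG00000046049) spans chr14:63992506-64035025 on the plus strand. *Prom1* (ENSMUSG00000029086) spans chr5:43993620-44102032 and *Cdhr1* (ENSMUSG00000021803) spans chr14:37077857-37098347, both on the minus strand. *Impg1* (ENSMUSG00000032343) spans chr9:80313330-80465481 on the minus strand and *Impg2* (ENSMUSG00000035270) spans chr16:56204313-56273756 on the plus strand. *Reep6* (ENSMUSG00000035504) spans chr10:80329953-80336441 on the plus strand. Only *Prom1* had exons that overlap exons of another annotated gene, *Gm16401* on the opposite strand.

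The RefSeq table of start sites for GRCm38.p6 held 6 of the 9 genes, with 7 start sites since *Prom1* has 2. *Rp1*, *Rp1l1*, and *Reep6* had no entry. The 110 bases just before each start are printed 5′ to 3′ because the genes share a photoreceptor pattern of expression, described below. Capitals mark TAATC or its reverse complement GATTA, the core that homeodomain factors of the CRX and OTX family are known to bind.
Prph2, chr17:46910368-46910477, plus strand: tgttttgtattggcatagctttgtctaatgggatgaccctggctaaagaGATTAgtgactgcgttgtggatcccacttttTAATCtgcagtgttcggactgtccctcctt
Impg1, chr9:80465439-80465548, minus strand: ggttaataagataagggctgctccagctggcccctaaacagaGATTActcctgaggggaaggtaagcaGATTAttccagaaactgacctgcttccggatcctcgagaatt
Impg2, chr16:56204203-56204312, plus strand: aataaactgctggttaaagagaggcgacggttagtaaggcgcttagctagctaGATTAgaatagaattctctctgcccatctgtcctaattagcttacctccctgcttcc
Prom1, inner start, chr5:44094769-44094878, minus strand: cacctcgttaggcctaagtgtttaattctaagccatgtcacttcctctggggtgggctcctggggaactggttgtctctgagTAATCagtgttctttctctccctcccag
Prom1, outer start, chr5:44101737-44101846, minus strand: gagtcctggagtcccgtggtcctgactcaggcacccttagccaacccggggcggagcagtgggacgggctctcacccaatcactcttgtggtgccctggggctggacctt
Rom1, chr19:8929357-8929466, minus strand: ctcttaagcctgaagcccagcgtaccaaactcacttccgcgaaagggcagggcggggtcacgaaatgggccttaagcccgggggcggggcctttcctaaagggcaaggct
Cdhr1, chr14:37098348-37098457, minus strand: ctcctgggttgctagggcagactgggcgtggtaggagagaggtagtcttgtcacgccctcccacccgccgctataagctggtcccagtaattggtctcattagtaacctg

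The core was found before 4 of the 7 starts, all within the stretches printed. It lay 61 and 30 bases before the *Prph2* start, 68 and 42 bases before the *Impg1* start, 57 bases before the *Impg2* start, and 28 bases before the inner *Prom1* start. In the 250 bases before a start, it occurred at 19.8% of all 32851 starts in the table. The longer form TAATCC, or GGATTA on the other strand, was found before 0 of the 7 starts and before 6.25% of all starts. A match is a match of letters only.

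A barcode was kept as a cell when it held 401 or more UMIs, 201 or more genes, and no more than 20% mtDNA-encoded UMIs. This left 12529 WT cells, with a median of 1878 UMIs, and 18395 mutant cells, with a median of 1416. The limit on mtDNA-encoded UMIs removed 45.9% of WT and 17.3% of mutant barcodes. Cells were clustered without the 9 genes, and clusters were named from marker genes. Rod-like cells numbered 10614 WT and 14343 mutant, cone-like cells 598 and 1083, bipolar-like 232 and 630, RPE-like 289 and 910, amacrine-like 76 and 286, microglia-like 224 and 122, and Müller-like 29 and 86. A level is given as CPM, the UMIs of a gene per 1000000 UMIs summed over a class. Barcodes with 10 to 100 UMIs, called free RNA here, hold RNA outside counted cells, and the 9 genes made up 1.29% of their UMIs in the WT library and 1.42% in the mutant library. Rod RNA was present in every class: the 8 rod markers (*Sag*, *Gnat1*, *Nrl*, and others) summed to 69633 CPM in WT rod-like cells, 53625 CPM in WT cone-like cells, and 15617 to 28690 CPM in the other WT classes. In the mutant library these sums were 71479, 59364, and 18738 to 33339 CPM. The levels outside rods are therefore also given for cells with at most 2% of UMIs from the rod markers, a limit chosen after the data were seen.

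In rod-like cells, the 9 genes together made up 1.872% of WT UMIs (1.868 to 1.877) and 1.991% of mutant UMIs (1.986 to 1.995). The disc rim gene *Prph2* stood at 5407 CPM in the WT library and 5800 CPM in the mutant library, and its partner *Rom1* at 6231 and 7610 CPM. Of the genes that act at disc formation, *Prom1* stood at 628 and 626 CPM, and *Cdhr1* at 598 and 595 CPM. The axonemal genes stood at 3829 and 2796 CPM for *Rp1*, and at 330 and 339 CPM for *Rp1l1*. The matrix genes stood at 246 and 199.7 CPM for *Impg1*, and at 359 and 352 CPM for *Impg2*. *Reep6* stood at 1094 CPM in the WT library and 1591 CPM in the mutant library. All 9 genes were thus counted in the rod-like cells of both libraries from at least 7374 UMIs each.

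**Figure D1:**
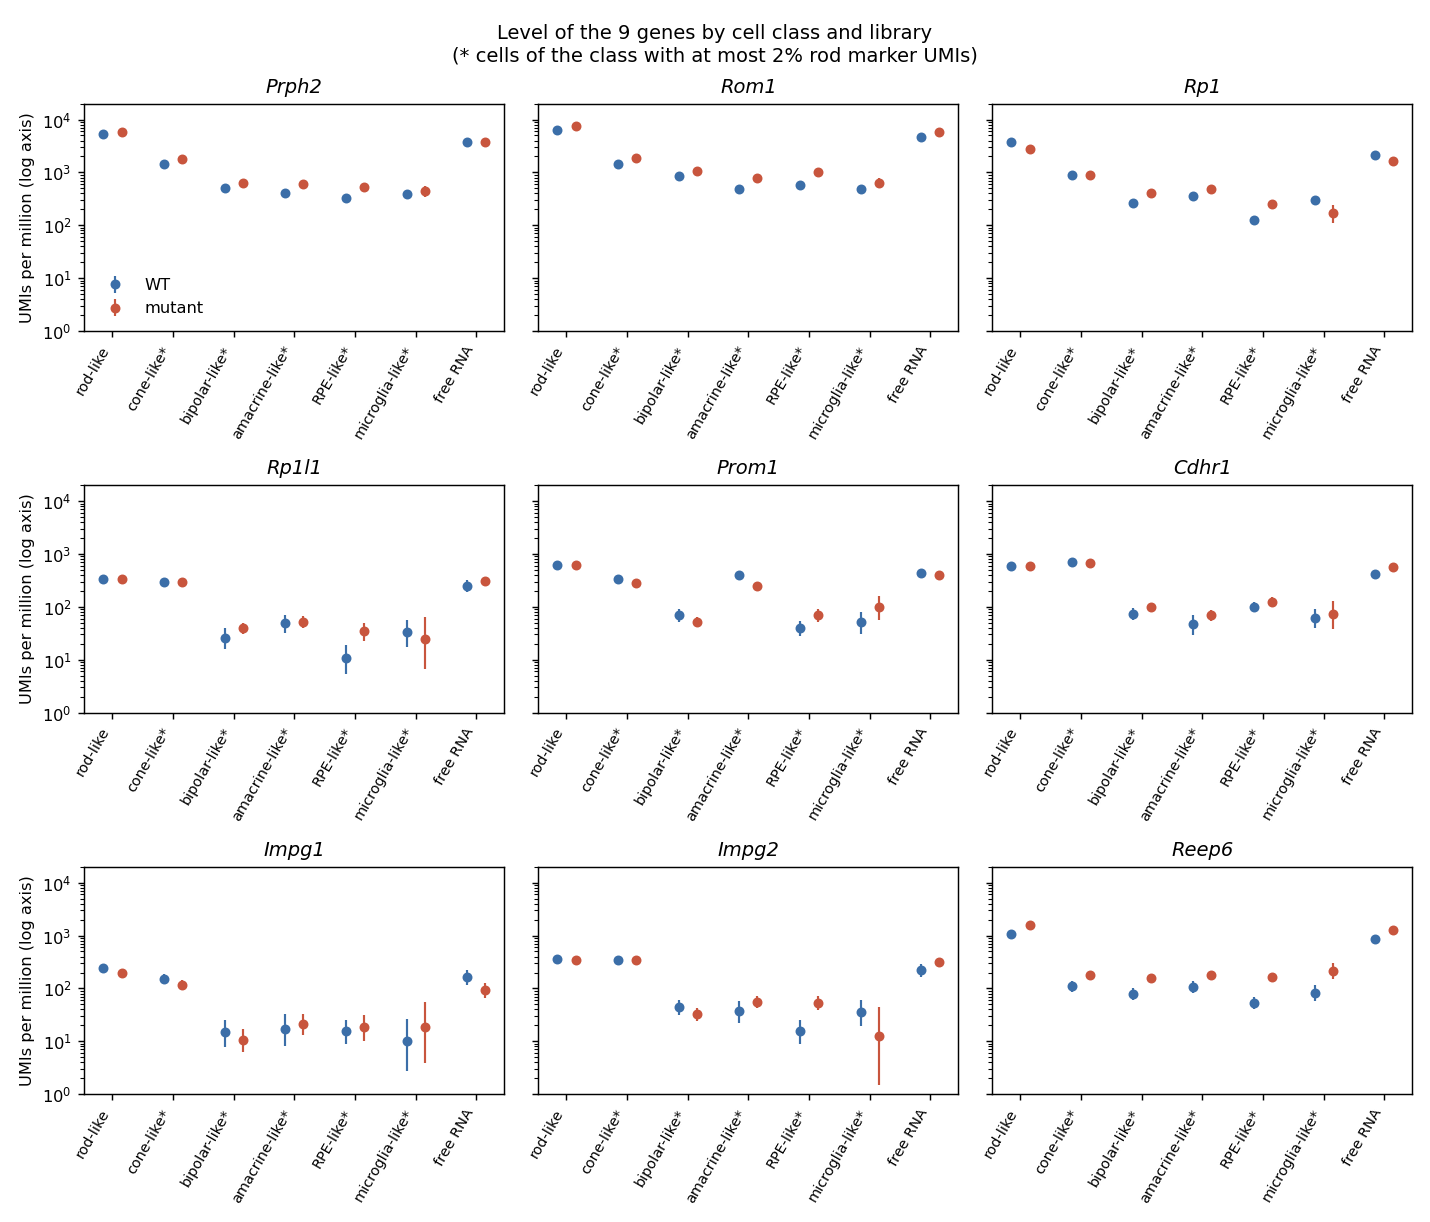
Level of each of the 9 genes (CPM, log axis) in 6 cell classes and in free RNA, in the WT (blue) and mutant (red) libraries, with 95% Poisson intervals for counting error. Classes with an asterisk hold only cells with at most 2% rod marker UMIs; *Cdhr1*, *Impg2*, and *Rp1l1* stay near their rod level in cone-like cells, *Reep6* does not, and *Prom1* stands apart in amacrine-like cells.

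The rod-like cells fell into 8 clusters, made with each library scaled on its own, and the genes did not vary together across them. *Rp1* varied most, from 1142 to 5961 CPM in the WT library and from 960.7 to 5263 CPM in the mutant library, a range of 5.22-fold and 5.48-fold. *Cdhr1* ranged 3.48-fold in the WT library and 4.43-fold in the mutant library. *Reep6* ranged 2.93-fold and 2.90-fold. *Prph2* ranged 1.80-fold and 1.53-fold, and *Prom1* 1.58-fold and 1.67-fold, the narrowest ranges. In both libraries, 1 cluster of 643 WT and 1533 mutant cells, with *Rbp3* and *Gnat1* among its leading genes, held the highest level of *Cdhr1*, *Prom1*, *Impg1*, *Impg2*, and *Reep6*. *Reep6* stood there at 1790.5 CPM in the WT library and 2580 CPM in the mutant library. *Rp1* was highest in another cluster, of 757 WT and 668 mutant cells, in both libraries. That cluster raised 5 of the 8 rod markers over the named classes other than rods and cones, with none among its 10 leading genes.

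*Malat1*, a long noncoding RNA kept in the nucleus, separated the rod-like clusters into those rich and those poor in it, and *Rp1* followed it. Rod-like cells were divided at the median *Malat1* share of their UMIs over both libraries, 0.361%, and their CPM were taken with *Malat1* left out of the totals. Above this share lay 42.5% (41.6 to 43.4) of WT rod-like cells and 55.5% (54.7 to 56.4) of mutant ones. *Rp1* stood at 4932 CPM in the *Malat1*-rich and 1378 CPM in the *Malat1*-poor WT cells, a log2 ratio of 1.84 (1.81 to 1.87). In the mutant library it stood at 3530 and 1270 CPM, a log2 ratio of 1.48 (1.449 to 1.502). The median over all genes was 0.91 in the WT library and 0.56 in the mutant library. *Rom1* lay on the other side, with 5519 CPM in rich and 8872 CPM in poor WT cells, a log2 ratio of −0.68 (−0.70 to −0.67), and −0.43 (−0.44 to −0.42) in the mutant library. *Prph2* gave −0.34 in the WT and −0.16 in the mutant library, *Impg1* gave −0.25 and −0.19, and *Reep6* gave −0.13 and −0.01. *Rp1l1* gave 0.70 and 0.41, less than *Rp1* in each library. *Cdhr1* gave −0.06 and −0.09, *Prom1* 0.34 and 0.28, and *Impg2* 0.48 and 0.26.

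**Figure D2:**
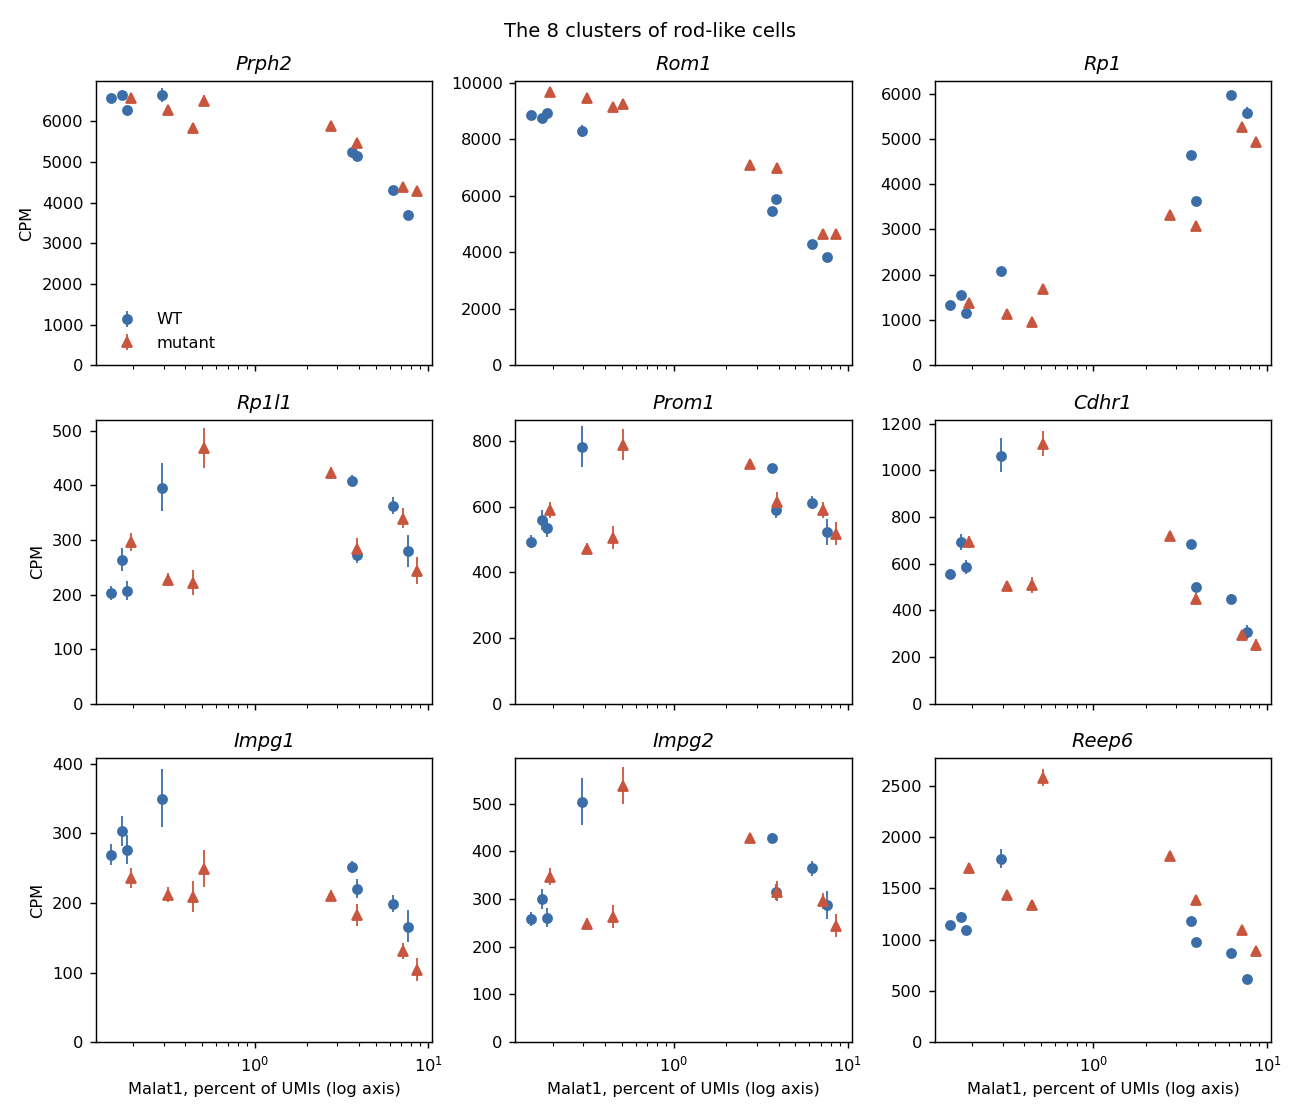
CPM of each gene in the 8 clusters of rod-like cells against the percent of UMIs from *Malat1* (log axis), with WT as blue circles and mutant as red triangles and 95% Poisson intervals for counting error. *Rp1* ranges from 3067 to 5961 CPM in the 4 clusters rich in *Malat1* and from 960.7 to 2070 CPM in the other 4, *Rom1* and *Prph2* are highest in those poor in it, and *Reep6* is higher in the mutant library in all 8 clusters.

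Over the whole cone-like class, which held much rod RNA, no gene differed from rods by more than 0.67 on the log2 scale. The log2 ratio of rod-like over cone-like CPM was 0.67 in the WT and 0.58 in the mutant library for *Rom1*, 0.41 and 0.28 for *Prph2*, 0.24 and 0.26 for *Impg1*, and 0.23 and 0.11 for *Reep6*. *Rp1* gave 0.04 and −0.02, and *Prom1* −0.12 and −0.11. *Cdhr1* gave −0.39 and −0.47, *Impg2* −0.42 and −0.39, and *Rp1l1* −0.51 and −0.54. Only *Rom1* was higher in rods by 0.5 or more in each library, where 4.46% of the 12727 WT genes and 7.69% of the 13505 mutant genes were. Only *Rp1l1* was lower by as much, as were 24.7% and 22.4% of genes. The cone-like class was made of 3 clusters, and 1 of them, of 159 WT and 424 mutant cells, had a median of 17.6 times the UMIs of its library's median cell. It supplied 32998 of the 44352 WT and 60051 of the 72264 mutant *Prph2* UMIs of the class, and most UMIs of the other genes. The sums over the class thus rest mostly on this cluster.

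In the cone-like cells with at most 2% rod marker UMIs, 133 WT and 212 mutant cells, the genes came apart. Counts there were 732919 WT and 710797 mutant UMIs. *Cdhr1* stood at 701 CPM in the WT and 677 CPM in the mutant library, 117% (107 to 128) and 114% (104 to 124) of its level in rod-like cells. *Impg2* stood at 345 and 349 CPM, 96.1% (84.5 to 109) and 99.0% (87.0 to 112) of the rod level. *Rp1l1* stood at 293 and 290 CPM, 88.8% (77.3 to 102) and 85.6% (74.2 to 98.2). The photoreceptor cadherin, 1 matrix proteoglycan, and 1 axonemal protein were thus near their level summed over rod-like cells, with *Cdhr1* the only gene above that level in both libraries. Among the rod-like clusters, *Cdhr1* ranged from 305 to 1062 CPM in the WT library and from 252 to 1114 CPM in the mutant library. Its level in these cone-like cells lay within that range.

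The other genes were lower in these cone-like cells than in the sum over rod-like cells. *Impg1* stood at 153 and 117 CPM, 62.1% and 58.5% of the rod level, and its lowest rod-like cluster stood at 166 WT and 103 mutant CPM. *Prom1* stood at 334 and 277 CPM, 53.3% and 44.2%. The rim genes were lower still, with *Prph2* at 1442 and 1771 CPM, 26.7% and 30.5% of the rod level, and *Rom1* at 1444 and 1871 CPM, 23.2% and 24.6%. *Rp1* stood at 902 and 875 CPM, 23.6% and 31.3%. *Reep6* was lowest, at 109 CPM (86.5 to 136) in the WT and 183 CPM (153 to 217) in the mutant library, which is 9.98% (7.91 to 12.4) and 11.5% (9.60 to 13.6) of its rod level. The rod markers other than *Sag* and *Gngt1* stood at 4.79% to 9.22% of their rod level in the WT cells and at 6.95% to 9.38% in the mutant cells, so the *Reep6* interval reached into the range of rod markers in the WT library and lay just above it in the mutant library. *Sag* stood at 59.2% and 57.6%, and *Gngt1* at 30.5% and 26.6%. Rod-like cells were higher by 0.5 or more on the log2 scale for 6 of the 9 genes in each library, where 19.9% of 12197 WT and 16.8% of 12873 mutant genes were, and lower by as much for none, where 29.5% and 34.0% were.

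**Figure D3:**
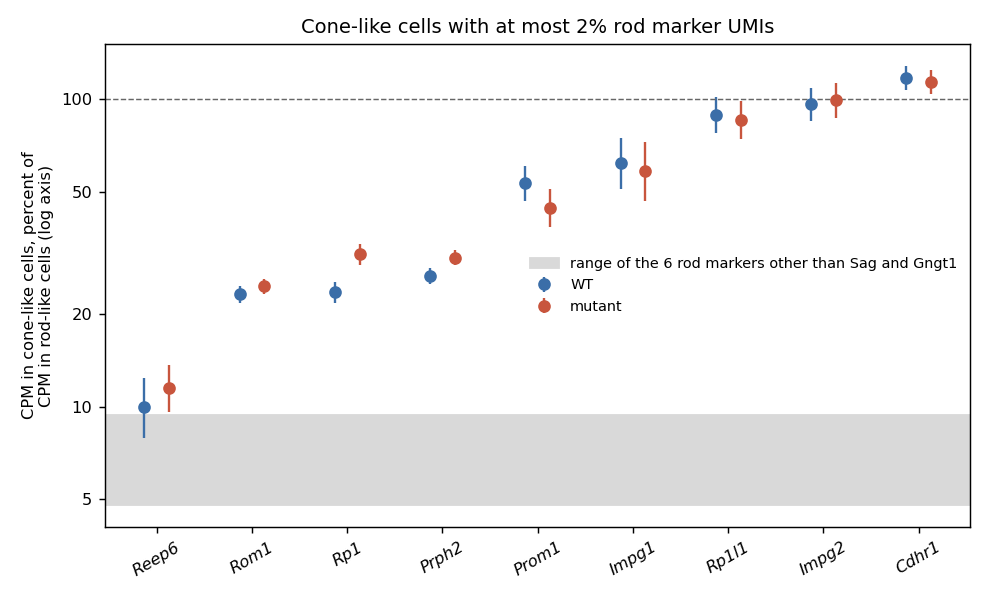
CPM of each gene in cone-like cells with at most 2% rod marker UMIs, as a percent of its CPM in rod-like cells of the same library (log axis), with 95% intervals for counting error and WT in blue and mutant in red. The dashed line is the rod level and the grey band the range of 6 rod markers, with *Sag* and *Gngt1*, which stand higher, left out. *Reep6* sits just above the band, with a WT interval that reaches into it, and *Cdhr1* sits above 100% in both libraries.

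At a limit of 1% rod marker UMIs, only 17 WT and 26 mutant cone-like cells remained. *Reep6* then stood at 6.84% (2.95 to 13.5) of its rod level in the WT library, from 8 UMIs, and at 9.87% (5.64 to 16.0) in the mutant library, from 16 UMIs, with those rod markers at 1.32% to 3.82% and 1.85% to 4.15%. *Cdhr1* stood at 133% (106 to 165) and 112% (87.0 to 142). *Impg2* stood at 62.5% (40.0 to 93.1) in the WT library and at 123% (89.0 to 165) in the mutant library, so its place near the rod level did not hold in the WT cells at this limit.

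Summed over each class, the members of each related pair stood in different proportions in rods and in cone-like cells of the 2% limit. The proportions also varied among rod-like clusters. *Rom1* and *Prph2* stood at 4299 and 4322 CPM in 1 WT cluster. *Rp1l1* and *Rp1* stood at 468 and 1687 CPM, and *Impg2* and *Impg1* at 244 and 103 CPM, each in 1 mutant cluster. These were among the clusters nearest the cone-like shares, and the part of the mix of rods in the differences was not tested. A share within a pair also depends on how well each transcript is captured, so it is compared here between cells and not read as a ratio of transcripts. *Rp1l1* made up 7.94% (7.81 to 8.08) of *Rp1* and *Rp1l1* UMIs in WT rod-like cells and 24.5% (21.7 to 27.5) in the WT cone-like cells with few rod marker UMIs. In the mutant library these shares were 10.8% (10.62 to 10.98) and 24.9% (21.97 to 27.97). *Impg2* made up 59.3% (58.7 to 59.98) of the *Impg1* and *Impg2* UMIs in WT rod-like cells and 69.3% (64.3 to 74.0) in those cone-like cells, and 63.8% (63.2 to 64.5) and 74.9% (69.9 to 79.5) in the mutant library. *Rom1* made up 53.5% (53.4 to 53.7) of the *Prph2* and *Rom1* UMIs in WT rod-like cells and 50.02% (47.87 to 52.18) in those cone-like cells. In the mutant library its share was 56.8% (56.6 to 56.9) and 51.4% (49.4 to 53.3). At the limit of 1%, the difference from rods stood in both libraries only for *Rp1l1*, at 38.9% (29.7 to 48.7) in the WT and 28.3% (20.2 to 37.6) in the mutant library. The intervals of the other pairs then held the rod share, with *Impg2* at 57.1% (41.0 to 72.3) and 75.9% (62.8 to 86.1), and *Rom1* at 51.4% (45.4 to 57.4) and 57.5% (51.9 to 62.9).

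Outside photoreceptors, levels were set against the rod markers. The UMIs of a gene per rod marker UMI in a class were divided by the same quantity in the rod-like cells of that library. A log2 ratio of 0 is then what rod RNA in the proportions of rods would give, and cone RNA is not taken into account. In microglia-like cells with at most 2% rod marker UMIs, 111 WT and 71 mutant cells, the interval held 0 for 9 of 9 genes in the WT library and for 7 of 9 in the mutant library. The exceptions were *Prom1*, at 0.89 (0.08 to 1.59), and *Reep6*, at 0.67 (0.15 to 1.15), both in the mutant library only. In bipolar-like, amacrine-like, and RPE-like cells of the same limit, it held 0 for 4 to 6 of the 9 genes in each library, and in the few Müller-like cells, 22 WT and 38 mutant, for 8 and 5. *Prph2* in amacrine-like cells stood at 409 WT and 611 mutant CPM, where rod RNA alone would give 399 and 610.2 CPM. *Rp1* stood at different places in the libraries, at −0.33 in WT and 0.58 in mutant bipolar-like cells, −0.85 and −0.02 in RPE-like cells, and 0.35 and 0.70 in amacrine-like cells.

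*Prom1* stood apart in amacrine-like cells, a class whose clusters also raised ganglion cell markers. In those with at most 2% rod marker UMIs, 58 WT and 211 mutant cells, it reached 397 CPM (345 to 455) in the WT library and 244 CPM (215 to 276) in the mutant library, where rod RNA alone would give 46.3 and 65.9 CPM. Per rod marker UMI this was a log2 ratio of 3.10 (2.89 to 3.30) and 1.89 (1.70 to 2.07) over rods, the highest of the 9 genes in either library. *Prom1* UMIs were found in 84.5% of these WT cells and 44.1% of these mutant cells, with median depths of 7588 and 3613 UMIs. In bipolar-like cells chosen by the same limit, the shares were 20.1% and 15.8%, at median depths of 4621 and 3596.5 UMIs. At a limit of 1%, the level was 336 CPM in the WT and 212 CPM in the mutant library. Both amacrine-like clusters took part, with 441 WT and 296 mutant CPM in 1 and 196 and 143 CPM in the other. The first held 48 of these WT and 91 of these mutant cells and the second 10 and 120, so the libraries differ in which cluster fills the class. *Gm16401*, which overlaps *Prom1* on the opposite strand, had 0 UMIs in these WT cells and 1 UMI in these mutant cells. Each amacrine-like cluster raised 7 amacrine markers, and the first raised 7 and the second 6 of 8 ganglion cell markers. Over the whole WT class, amacrine markers summed to 2564 CPM and ganglion cell markers to 1822 CPM. No cluster was named as ganglion cells, so the *Prom1* level is not assigned to amacrine cells alone.

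*Cdhr1* stood apart in RPE-like cells, where *Rom1* was above the rod RNA level too. In RPE-like cells with at most 2% rod marker UMIs, 160 WT and 571 mutant cells, *Cdhr1* stood at 101 CPM (82.5 to 122) in the WT library and 124 CPM (99.9 to 151) in the mutant library, against 35.1 and 54.8 CPM from rod RNA alone. The log2 ratio per rod marker was 1.52 (1.23 to 1.80) and 1.17 (0.86 to 1.46). *Rom1* gave 0.65 (0.53 to 0.76) and 0.55 (0.44 to 0.65) in the same cells. The interval of *Impg2* also lay above 0 in the mutant library, and those of *Rp1* and *Rp1l1* lay below 0 in the WT library. In bipolar-like cells of the same limit, *Rom1* gave 0.64 and 0.52, and *Cdhr1* gave 0.50 and 0.76. Cone RNA was present too, with cone markers at 344 WT and 392 mutant CPM over the whole RPE-like class. In free RNA they stood at 2074 and 2607 CPM. In WT cone-like cells of the 2% limit, *Cdhr1* gave 2.56 (2.43 to 2.69) per rod marker UMI over rods. The part of cone RNA in the *Cdhr1* values was not tested. At a limit of 1%, *Cdhr1* in RPE-like cells gave 2.16 in the WT and 1.71 in the mutant library, and *Impg2* and *Reep6* were also above 0 in the mutant library. Set against free RNA instead of rods, *Cdhr1* per rod marker UMI over the whole RPE-like class gave 0.59 (0.25 to 0.94) in the WT library. In the mutant library it gave −0.12 (−0.35 to 0.12).

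The main question of the design was how the mutant library differed from the WT library. In rod-like cells, the mutant level was above the WT level for 4 of the 9 genes and below it for 5, beside 53.3% and 46.7% of the 13620 genes compared. The log2 ratios of the 9 had a median of −0.0026, and those of all genes 0.03. *Reep6* was the only gene past 0.5, at 0.54 (0.52 to 0.56), and 20.2% of all genes were higher by as much. It was 0.495 as a mean over cells and 0.494 with each cell thinned, so that none of the 9 was then past 0.5. None of the 9 was lower by 0.5 or more, which 7.58% of all genes were. Over all cells, 5 genes were higher and 4 lower, beside 56.7% and 43.3% of 15888 genes. The median there was 0.0043 beside 0.07 for all genes, and *Reep6* alone was past 0.5, at 0.53, where 21.4% of genes were higher and 8.72% lower by as much.

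*Reep6* was higher in the mutant library wherever rods were divided. It was higher in 8 of 8 rod-like clusters, by 0.29 to 0.61, and in 9 of 9 bins of mtDNA share, UMIs per cell, and *Malat1* share, by 0.40 to 0.61. Here and below, clusters and bins divide the same rod-like cells of the 2 libraries in several ways, so they are not replicates. The share of all genes with 1 direction in every cluster or bin was not computed. In barcodes above 20% mtDNA-encoded UMIs, clustered anew, *Reep6* stood at 1329 WT and 1813 mutant CPM of nuclear genes, a log2 ratio of 0.45 (0.36 to 0.53). In free RNA the ratio was 0.51 (0.27 to 0.76). With each cell thinned to 400 UMIs, 34.1% (33.2 to 35.0) of WT and 43.8% (43.0 to 44.7) of mutant rod-like cells held a *Reep6* UMI, and unthinned the shares were 80.7% and 82.8%. Microglia-like cells, which should lack the gene, held it in 14.7% and 18.9% of thinned cells and in 48.2% and 47.5% of unthinned ones.

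The rim genes were also higher in mutant rod-like cells. *Rom1* was higher by a log2 ratio of 0.29 (0.28 to 0.30) and *Prph2* by 0.10 (0.09 to 0.11). With each cell thinned, *Prph2* gave only 0.019 in rod-like cells, and over all cells it turned from 0.073 to −0.052. *Rom1* was higher in 8 of 8 rod-like clusters, by 0.04 to 0.38, and in 9 of 9 bins, by 0.06 to 0.40. It was not higher in the barcodes above 20% mtDNA-encoded UMIs, at −0.03 (−0.07 to 0.0019). *Prph2* was higher in 4 of 8 rod-like clusters and lower in 4, from −0.11 to 0.21, so its sum over rods did not describe every group of rods.

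*Impg1* and *Rp1* were lower in mutant rod-like cells. *Impg1* gave −0.30 (−0.35 to −0.26) and was lower in 8 of 8 rod-like clusters, by −0.68 to −0.26, and in 9 of 9 bins, by −0.45 to −0.25. It was also lower in the barcodes above 20% mtDNA-encoded UMIs, at −0.41 (−0.64 to −0.18), and in free RNA, at −0.82 (−1.53 to −0.12), from 37 WT and 36 mutant UMIs. After thinning, 9.37% (8.83 to 9.94) of WT and 7.78% (7.35 to 8.23) of mutant rod-like cells held an *Impg1* UMI, beside 3.12% and 4.92% of microglia-like cells. Unthinned, 42.6% and 30.9% of rod-like cells held one. *Rp1* gave −0.45 (−0.47 to −0.44) and was lower in 8 of 8 clusters, by −0.49 to −0.17. In the shallowest of 4 bins of UMIs per cell, however, it stood at 1642 WT and 1646 mutant CPM, a log2 ratio of 0.0038 (−0.08 to 0.09). In the *Malat1*-poor cells the ratio was −0.12 (−0.15 to −0.08), and in the *Malat1*-rich cells −0.47 (−0.48 to −0.46). The part of the *Malat1* difference between the libraries in these values was not tested.

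The remaining 4 genes differed little when summed over rod-like cells. *Rp1l1* gave 0.04 (0.0001 to 0.07), *Prom1* −0.0026 (−0.03 to 0.02), *Cdhr1* −0.0059 (−0.03 to 0.02), and *Impg2* −0.03 (−0.06 to 0.01). Their bins ranged on both sides of 0, from −0.15 to 0.26 for *Rp1l1*, −0.08 to 0.08 for *Prom1*, −0.12 to 0.05 for *Cdhr1*, and −0.11 to 0.25 for *Impg2*. Single clusters differed by more: *Cdhr1* was lower in 5 of 8 rod-like clusters, down to −0.61 (−0.71 to −0.51) in the cluster where *Rp1* was highest, and *Impg2* gave −0.30 (−0.40 to −0.20) in the same cluster. Over the 8 clusters *Prom1* ranged from −0.08 to 0.08 and *Rp1l1* from −0.20 to 0.24.

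**Figure D4:**
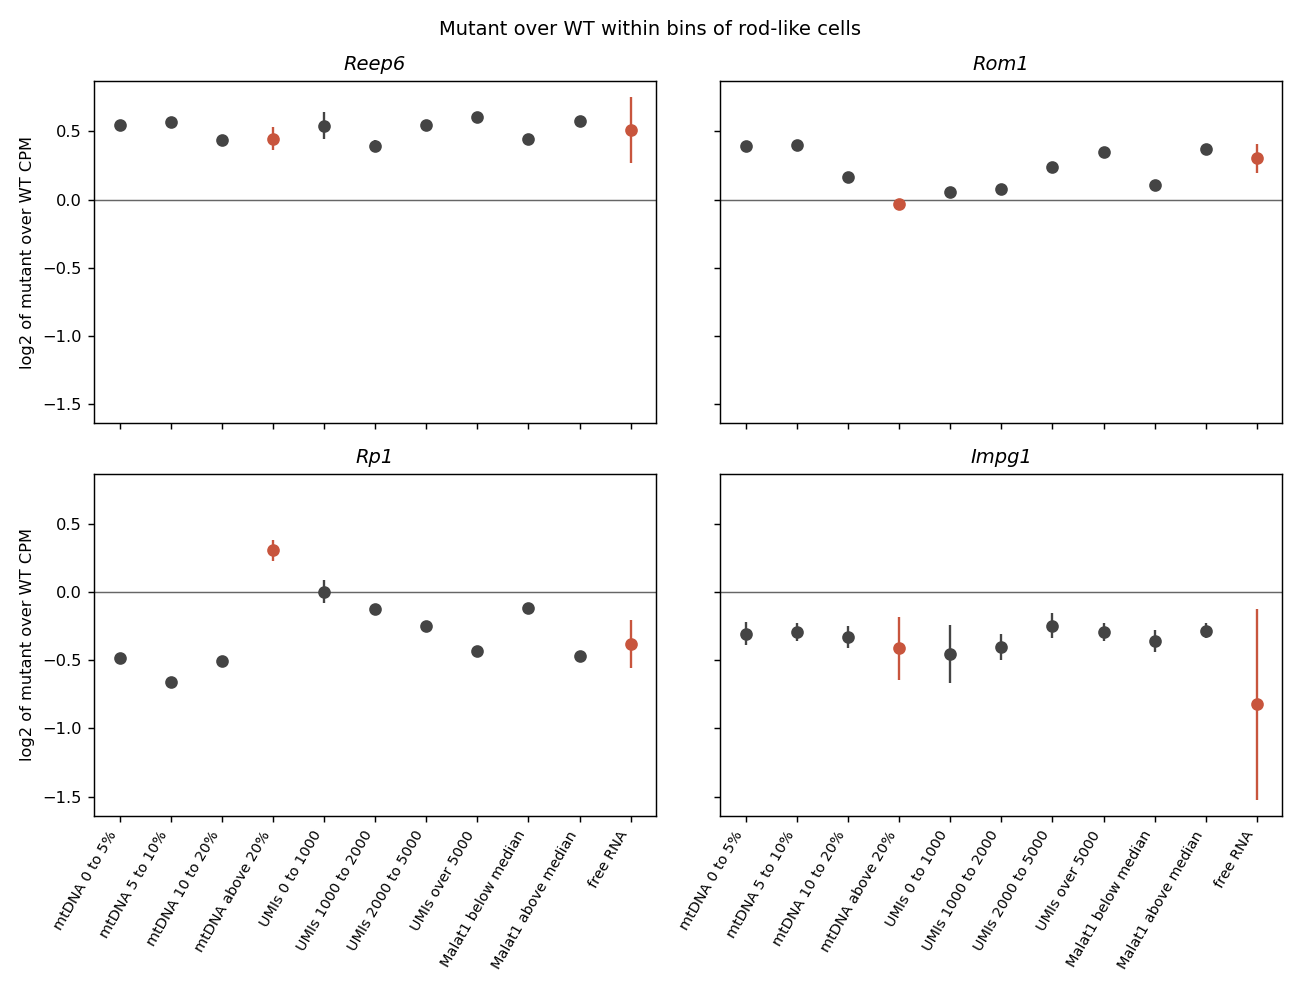
Log2 ratio of mutant over WT CPM of *Reep6*, *Rom1*, *Rp1*, and *Impg1* within bins of rod-like cells by mtDNA share, UMIs per cell, and *Malat1* share, with 95% intervals for counting error. Red points are outside the kept cells (barcodes above 20% mtDNA-encoded UMIs and free RNA); *Reep6* stays above 0 and *Impg1* below 0 in every bin, while *Rp1* ranges from −0.66 to 0.31.

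Cone-like cells gave a similar order. Over the whole class, *Reep6* gave 0.66 (0.63 to 0.69), *Rom1* 0.38 (0.37 to 0.40), *Prph2* 0.23 (0.22 to 0.25), *Rp1* −0.39 (−0.41 to −0.37), and *Impg1* −0.32 (−0.40 to −0.24), with the other 4 genes between −0.05 and 0.07. Of the 9 genes, 5 were higher and 4 lower, beside 47.2% and 52.8% of the 12359 genes compared. *Reep6* was again the only gene past 0.5, where 11.4% of genes were higher and 8.36% lower by as much. Rod marker levels in this class were higher in the mutant library, and its clusters were unequally filled. The cluster of very high UMI counts held 159 of 598 WT cells and 424 of 1083 mutant cells, and most UMIs of each gene. Their part in these values was not tested. Of the cone-like cells with at most 2% rod marker UMIs, *Reep6* was alone past 0.5, where 15.6% of 7628 genes were higher and 10.2% lower by as much. In these cells, whose rod markers made up 1.38% of UMIs in each library, *Rom1* gave 0.37 (0.26 to 0.49), *Prph2* 0.30 (0.18 to 0.42), and *Reep6* 0.74 (0.33 to 1.16). For *Rp1* the interval held 0, at −0.04 (−0.20 to 0.12), and *Impg1* gave −0.39 (−0.82 to 0.03), from 112 WT and 83 mutant UMIs. *Prom1* gave −0.27 (−0.55 to 0.01). Within the 3 cone-like clusters, *Reep6* was higher in 3, by 0.08 to 0.59, and *Impg1* and *Rp1* were lower in 3, while *Rom1* ranged from −0.31 to 0.36 and *Prph2* from −0.32 to 0.19, each higher in 2 and lower in 1.

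**Figure D5:**
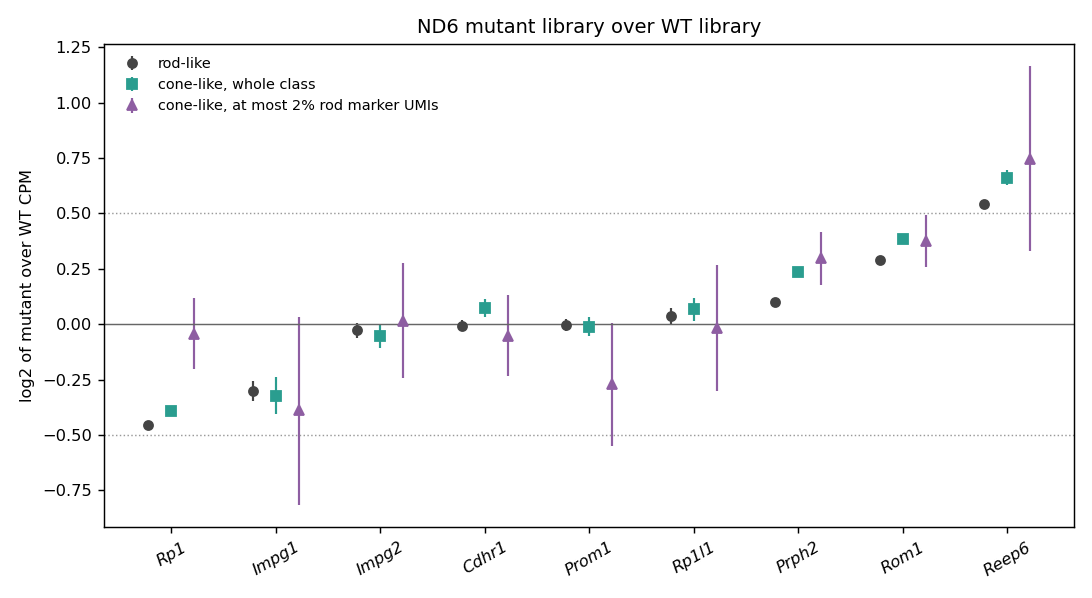
Log2 ratio of mutant over WT CPM of the 9 genes in rod-like cells (circles), the whole cone-like class (squares), and cone-like cells with at most 2% rod marker UMIs (triangles), with 95% intervals for counting error and dotted lines at 0.5 and −0.5. *Reep6*, *Rom1*, and *Prph2* are above 0 in all 3 sets, and *Rp1* is near 0 in the third only.

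In RPE-like cells, the direction over the class and the direction within its clusters were opposite for most of the genes. Summed over the class, all 9 were higher in the mutant, from 0.62 for *Cdhr1* to 1.71 for *Reep6* with a median of 1.13, beside 58.6% of the 9150 genes compared that were higher and 41.4% that were lower. All 9 were past 0.5, where 28.2% of genes were higher and 12.7% lower by as much. The class lay in different clusters in each library, however, with a median depth of 2962 WT and 1072 mutant UMIs. One cluster, with rod markers at 56609 WT and 44780 mutant CPM, held 110 WT and 689 mutant cells, and the other, with rod markers at 8470 and 7153 CPM, held 179 and 221. Within the first, *Reep6* gave 0.22 (−0.01 to 0.45) and the other 8 genes lay between −0.76 and −0.11. Within the second, *Reep6* gave 0.72 (0.33 to 1.11), *Rom1* 0.13 (−0.02 to 0.27), and *Rp1l1* 0.51 (−0.31 to 1.297), while the other 6 genes lay between −0.78 and −0.21. These ratios within clusters were added after the data were seen.

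Lists of related genes gave a background for these differences. Of 14 further outer segment genes (cyclic nucleotide channel, guanylate cyclase, and disc lipid transport genes among them), 9 were lower and 5 higher in mutant rod-like cells. Their median was −0.04. Of all 13620 genes compared in these cells, 46.7% were lower and 53.3% higher, with a median of 0.03. The lowest were *Rdh8*, a retinol dehydrogenase, at −0.94 from 198 WT and 102 mutant UMIs, and *Guca1b*, a guanylate cyclase activator, at −0.47. The highest were *Abca4*, the disc rim lipid transporter, at 0.40, and *Gucy2e*, a guanylate cyclase, at 0.32. Of 30 cilium genes, 17 were lower and 13 higher, and their median was −0.08. Only *Lca5*, at −0.57, was past 0.5 either way, where 20.2% of all genes were higher and 7.58% lower by as much. *Kif3a*, a subunit of the intraflagellar transport motor, gave −0.43, and *Cc2d2a*, a transition zone gene, gave 0.32.

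Of 7 other matrix genes, 6 could be compared in rod-like cells, 4 higher and 2 lower, beside 53.3% and 46.7% of all genes. *Rbp3*, the retinoid carrier of the interphotoreceptor matrix, gave 0.29, at 2046 WT and 2497 mutant CPM, in the direction opposite to *Impg1*. *Egflam*, a ribbon synapse matrix protein, gave −0.04, *Vcan* −0.12 from 11 and 10 UMIs, and *Cd44* 1.77 from 11 and 37 UMIs. Of the other 5 *Reep* genes, 3 were higher and 2 lower, beside the same shares of all genes. *Reep1* gave 1.95 from 11 WT and 42 mutant UMIs, *Reep2* 0.97 from 135 and 261, *Reep3* −0.15 from 1412 and 1256, *Reep4* −1.03 from 56 and 27, and *Reep5* 0.60 from 286 and 428. Of the 5, 3 were thus higher and 1 lower by 0.5 or more, where 20.2% and 7.58% of all genes were. All of these rest on far fewer UMIs than *Reep6*, with 40902 WT and 58753 mutant UMIs.

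In the whole cone-like class, 8 of the 14 outer segment genes were higher and 6 lower, with *Rdh8* at −0.60, *Gucy2f* at −0.33, *Gucy2e* at 0.36, and *Abca4* at 0.38. Of all 12359 genes compared in this class, 47.2% were higher and 52.8% lower. Of the cilium genes, 12 were higher and 18 lower, with *Kif3a* at −0.61, *Pde6d* at −0.46, *Cc2d2a* at 0.35, and *Ift172* at 0.37. *Abca4*, *Gucy2e*, and *Cc2d2a* were thus among the highest of their lists in both classes, in cells that share rod RNA.

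Over 8 cell classes in 2 libraries, genes whose levels closely followed the sum of the 9 genes on the log2(CPM + 1) scale, among genes with at least 500 UMIs, were *Guca1a*, *Gnb1*, *Tulp1*, and *Cngb1*, with Pearson correlations from 0.992 down to 0.988 over 16 points. Classes of 1 library share its depth and its free RNA, and members and class markers were left out of the search, so these correlations are a description.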

How the data were processed

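Droplet-based 3′ libraries of 1 WT and 1 ND6 retina sample were used. The authors made the deposited UMI counts per gene and barcode with Cell Ranger 3.0.2 on mm10, per the submitters' processing notes; the annotation release is not given in the sources used here, and coordinates come from GENCODE vM21. The totals were 77958836 WT and 80358255 mutant UMIs. The integration and regression of confounders in the study's methods were not repeated.

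Cells held 401 or more UMIs, 201 or more genes, and no more than 20% mtDNA-encoded UMIs. Both libraries were clustered with scikit-learn 1.9.0 and leidenalg 0.10.2 (3000 variable genes, 30 principal components, 20 neighbours, resolution 1). The 9 genes, the related lists, and mtDNA-encoded genes were left out. Each library was scaled on its own before clustering. With both scaled together, several rod-like clusters lay almost wholly in 1 library, such as 298 WT and 5978 mutant cells, or 3920 and 205. The 9 genes and all lists were chosen with earlier results of these data known. Clusters were named from at least 3 raised markers and a marker among their 10 leading genes. The rod-like clusters of 771 WT and 1255 mutant cells, and of 757 and 668 cells, had no rod marker among those. They were named from 3 and 5 of the 8 rod markers, raised over the named classes other than rods and cones. Scrublet, run in scanpy 1.11.5, called 0 WT and 1 mutant doublets and so did not work. Leaving out the 10% of cells with the highest scores is an alternative.

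UMIs were summed per library and class. Intervals were computed with scipy 1.17.1 (exact Poisson, Clopper-Pearson, and exact conditional for ratios), and ratio scripts were tested on simulated data. With 1 library per group no test was made, and a log2 ratio of 0.5 or more is only a size. Ratios over all genes used those with at least 20 UMIs. Genes outside the 9 were named by rule: the 2 highest and 2 lowest of each related list with at least 20 UMIs, and the 5 genes most like the sum of the 9 with at least 500 UMIs. Some genes that this rule names are not reported here. The limits of 2% and 1% rod marker UMIs, the ratios within RPE-like and amacrine-like clusters, and the removal of the cone-like cluster of very high UMI counts, were chosen after the data were seen. Alternatives changed the cell limits, the scaling, the clustering, and the depth per cell. Columns of samples of other series numbered 0.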

Additional observations from a re-analysis of the deposited data

Results flagged for a closer look

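The following log2 ratios of mutant over WT CPM went the opposite way to those in rod-like cells. The differences were not tested. *Rp1* was −0.45 in rod-like cells, but 0.17 (0.046 to 0.30) in the amacrine-like class. In the RPE-like class it was 0.98 (0.86 to 1.10), but −0.47 and −0.78 within its 2 clusters, which held 110 and 179 WT against 689 and 221 mutant cells. *Rp1l1* was 0.04 in rod-like cells and −0.37 (−0.71 to −0.01) in amacrine-like cells. The amacrine-like class also lay in different clusters, with 61 WT and 127 mutant cells in one and 15 and 159 in the other. Within them *Rp1l1* gave −0.30 (−0.67 to 0.08) and 0.04 (−1.11 to 1.37), and *Rp1* gave 0.25 and 0.52, with rod markers higher in the mutant by 0.22 and 0.78. *Impg1* was −0.30 in rod-like cells, against 0.71 (0.29 to 1.13) in the RPE-like class, but −0.76 and −0.27 within the RPE-like clusters. Summed rod markers over that class went from 15617 to 32090 CPM. In the barcodes above 20% mtDNA-encoded UMIs, which no comparison of kept cells used, *Rp1* was 0.31 (0.23 to 0.39) and *Prph2* was −0.095 (−0.14 to −0.05), against 0.10 for *Prph2* in the kept rod-like cells.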

How the results depend on the processing

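No paired analysis was possible because each genotype had 1 library, so no library could be left out either. The median log2 ratio of the 9 genes over all cells, 0.0043, became 0.058 without the mtDNA limit, −0.046 as a mean over cells, −0.031 with cells thinned to 400 UMIs, and 0.026 without the 10% of cells with the highest doublet scores. In rod-like cells it went from −0.0026 to 0.066 without the mtDNA limit and 0.047 with median-of-ratios scaling. In cone-like cells it went from 0.07 to 0.13 with that scaling and −0.017 at 2% rod marker UMIs. The count of genes past 0.5 went from 1 to 0 as a mean over cells and when thinned, both in all cells and in rod-like cells. The WT median of rod-like over cone-like cells, 0.04, became −0.085 without the mtDNA limit, 0.062 in cells of at least 1000 UMIs, 0.29 with median-of-ratios scaling, 0.085 per nuclear UMI, 0.17 as a mean over cells, 0.26 when thinned, 0.91 at 2% rod marker UMIs, and 0.42 without the cluster of very high UMI counts. The mutant median, −0.02, became 0.017 in cells of at least 1000 UMIs and, for the settings from scaling onward in the same order, 0.22, 0.014, 0.062, 0.13, 1.18, and 0.44. *Rp1l1* in rod-like over cone-like cells turned from −0.51 to 0.17 in the WT and from −0.54 to 0.22 in the mutant library at 2% rod marker UMIs. In rod-like cells, *Reep6* ranged from 0.49 to 0.59, *Rom1* from 0.17 to 0.34, *Rp1* from −0.48 to −0.29, and *Impg1* from −0.34 to −0.25 over the alternatives run. The cause of these shifts was not tested. Between-mouse spread is unknown.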
